A study of Mus musculus with 19 samples.

Results

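The change in transcript levels between 4 h and 7 h of basic fibroblast growth factor (FGF) was followed in NIH3T3 cells, a fibroblast line established from mouse embryos. It rests on 4 of the 19 arrays of the series: FGF 4 h replicates 1 and 2 and FGF 7 h replicates 1 and 2, chosen by their labelled treatment and time. Replicate 1 comes from experiment 1 and replicate 2 from experiment 2, and the 7 h array of each experiment was set against its 4 h array. All cells had been starved for 48 h in 0.1% serum, and FGF was given at 50 ng/ml. As a second pair of groups, 2 arrays at 4 h and 2 at 7 h had also received U0126 at 20 µM from -0.5 h, before FGF. U0126 inhibits MEK, the kinase that activates ERK. Quiescent cells (0 h, 3 arrays), FGF 1 h (1 array), FGF 12 h (2 arrays) and 1 array at 7 h with U0126 added at 1 h gave the course around the step. Arrays with U0126 from -0.5 h at 1 h (1 array) and 12 h (2 arrays) are drawn beside it. The spread behind each p-value was pooled over all groups of the series, including 1 array at 12 h with U0126 added at 7 h. The labels do not say whether replicates were separate cultures, so p-values measure only how far these samples spread, which may be technical. No array without FGF was taken at 4 or 7 h, so a change due to FGF cannot be told apart from one due to time in culture.

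Starved fibroblasts given FGF leave quiescence and pass through G1 towards DNA replication. Early in that passage immediate-early transcription factors, many of them targets of ERK, peak and decay. Later, E2F factors are released from pocket proteins and drive genes for cyclin E, for loading the MCM helicase onto replication origins (licensing) and for the DNA synthesis machinery. Geminin, which blocks a second round of licensing, is usually made with them.

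Values are MAS5 signal in arbitrary units, scaled on each array to the same trimmed mean of 500. Signals of different genes cannot be ranked, because probes differ in affinity. A difference is given as log2 after adding 13.6 to each signal, ± its standard error from limma, with experiment 1 or 2 as a block. A gene is called, and described as rising or falling, when its two-sided p from limma, adjusted by Benjamini-Hochberg over 14996 genes, was under 0.05. The median signal was 65.2 and 72 on the 4 h arrays and 63.2 and 82.5 on the 7 h arrays, within the 60.2 to 88.3 of the whole series. Replicates correlated with r = 0.972 at 4 h and 0.969 at 7 h across genes, which are not independent replicates. All 12 fibroblast markers tested were above 45.2, the 40th percentile of all values, on all 4 arrays. In RNA from whole cultures, a change in the share of cells expressing a gene cannot be told apart from a change in RNA per cell.

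Between 4 and 7 h, 285 of 14996 genes were called, which is 1.9% of those tested. Of these, 148 were higher at 7 h (0.987%) and 137 lower (0.914%). Each of the 285 moved the same way in both experiments, but the calls came from these same paired arrays. That shared direction was largely set by the calling and is no separate evidence. The step was small for most genes: its median over all genes was 0.02, the median size among called genes was 0.71, and 67 called genes exceeded a 2-fold change. Among called genes, the 4 h and 7 h signals did not overlap for 145 of the 148 higher and 127 of the 137 lower. These genes were called on the same signals, and the share over all genes is not given. Non-overlap, here and below, therefore only describes the values. Without the block the same contrast gave 18 genes, 9 higher and 9 lower (0.12% of those tested, 0.06% each way), and 4 genes without the variance trend in limma, so most calls rest on the pairing and on that trend. Leaving out FGF 7 h replicate 1 kept 53 of the 285 calls, FGF 7 h replicate 2 kept 135, FGF 4 h replicate 1 kept 61 and FGF 4 h replicate 2 kept 41. Of the genes called higher, 106 had more than 1 probe set, and in 80 all pointed the same way; of those called lower these numbers were 94 and 72, and 0 genes had probe sets called in opposite directions. Among called genes named here, at least 1 probe set pointed the other way for Mcm5, Rbl1, Fignl1, Dkc1, Pdk1, Hyou1, Fjx1, Pip5k1b, Ank3, Arhgap27, Per2, Uap1, Atp6v1b2 and Ptprk. In all, 26 genes were called whichever 1 of the 4 arrays was left out. Those higher at 7 h were Mcm3, Mcm4, Mcm5, Mcm6, Cdt1, Gmnn, Prim1, Rrm2, Uhrf1, Hells, Atad2, Zfp367, Apcdd1 and Slc5a3. Those lower were Nr4a1, Bhlhe40, Ccn5, Serpinb1a, Scara5, Adgrd1, Arhgap27, Bcl2l11, Phldb1, Rbms2, Rbms3 and Vwa5a. With the probe set of highest variance standing for each gene, 201 genes were called and 155 of the 285 were among them. Of the 26, 19 were called there; the other 7 were Uhrf1, Atad2, Zfp367, Apcdd1, Slc5a3, Scara5 and Phldb1, with adjusted p from 0.068 for Uhrf1 to 0.99 for Scara5.

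**Figure D1:**
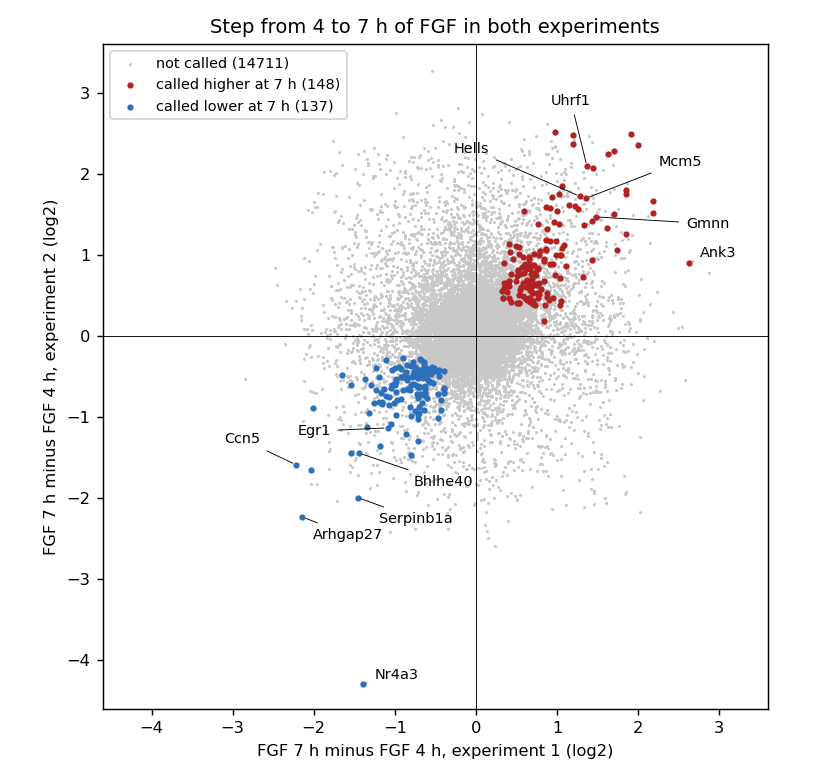
Each point is 1 of 14996 genes, with the log2 difference between 7 h and 4 h of FGF in experiment 1 on the horizontal axis and in experiment 2 on the vertical axis. The 148 genes called higher (red) lie at the upper right and the 137 called lower (blue) at the lower left, while genes that were not called (grey) scatter in all directions.

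Of the lists examined, that for licensing replication origins had the highest median step. The lists were chosen with earlier results of these data known, so its rank is no independent evidence. Of 23 tested genes for origin licensing and the replicative helicase, 11 rose and 0 fell, beside 0.987% called higher over all genes. The list's median step was 0.88 against 0.02 over all genes. Among them were 5 subunits of the MCM helicase ring. Mcm5 had signals of 1096 and 740.1 at 4 h and 2832 and 2429.7 at 7 h, a rise of 1.53 ± 0.16 (adjusted p = 0.00011). The lower 7 h array was more than double the higher 4 h array. Mcm6 went from 997 and 641 to 2094 and 2346 (1.46 ± 0.19, adjusted p = 0.00044), and Mcm3 from 824 and 593 to 1693 and 2034 (1.39 ± 0.16, adjusted p = 0.00022). Mcm4 went from 1678 and 1529.7 to 2876 and 3056, a rise of 0.88 ± 0.12 (adjusted p = 0.00068). Mcm7 showed 2089 and 1539.7 at 4 h and 3015 and 3117 at 7 h (0.77 ± 0.12, adjusted p = 0.0024). For all 5 genes both 7 h arrays exceeded both 4 h arrays. The sixth ring subunit, Mcm2, did not pass: its signals were 819 and 391 at 4 h and 921 and 796 at 7 h, which overlap (0.58 ± 0.27, adjusted p = 0.34). It passed with its probe set of highest variance (step 0.93, adjusted p = 0.005) and when only the compared arrays were fitted (adjusted p = 0.031). With 1 array left out, adjusted p stayed between 0.00014 and 0.03 for Mcm3, Mcm4, Mcm5 and Mcm6, while for Mcm7 it reached 0.091.

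The factors that bring MCM to origins moved with it. Cdt1, one of the loaders, had signals of 2722 and 2439 at 4 h and 5428 and 4872 at 7 h and rose by 0.99 ± 0.12 (adjusted p = 0.00036). Cdc6, the other loader, rose most in the list, from 157 and 146 to 603 and 524 (1.80 ± 0.39, adjusted p = 0.025). That call was lost with any 1 of the 4 arrays left out, where adjusted p was 0.12 to 0.17, although the 4 h and 7 h arrays lay far apart. Gmnn, which encodes geminin, the inhibitor of Cdt1, rose by 1.47 ± 0.16, from 396 and 290.2 to 1124 and 826 (adjusted p = 0.00013). It stayed called in each alternative analysis run for it, with adjusted p of 0.0016 to 0.0065 when 1 array was left out. Of the helicase activators, Gins1, a subunit of the GINS complex, went from 118 and 125 to 389 and 336 (1.47 ± 0.25, adjusted p = 0.0052). Cdc45, the partner of GINS, went from 204 and 115 to 315 and 361 (1.06 ± 0.22, adjusted p = 0.021). Cdc7, the kinase that fires licensed origins, went from 255 and 252 to 449.6 and 533 (0.91 ± 0.21, adjusted p = 0.03). With 1 array left out these 3 reached adjusted p of 0.082, 0.33 and 0.24. The other members did not pass, with steps from -0.12 for Orc3 to 1.10 for Orc1, both subunits of the origin recognition complex. Orc1 had 245 and 102 at 4 h and 391 and 325 at 7 h, with no overlap (adjusted p = 0.056). Gins2 stood at 344 and 305 and 549.9 and 579 (0.78 ± 0.22, adjusted p = 0.085), and Dbf4, the activating subunit of Cdc7, at 2218 and 1549.7 and 2719 and 2080.1 (0.36 ± 0.10). Without the block, 5 of the 11 calls remained (Mcm3, Mcm4, Mcm5, Cdt1 and Gmnn). The count was 7 or 8 with 1 array left out and 1 without the variance trend.

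**Figure D2:**
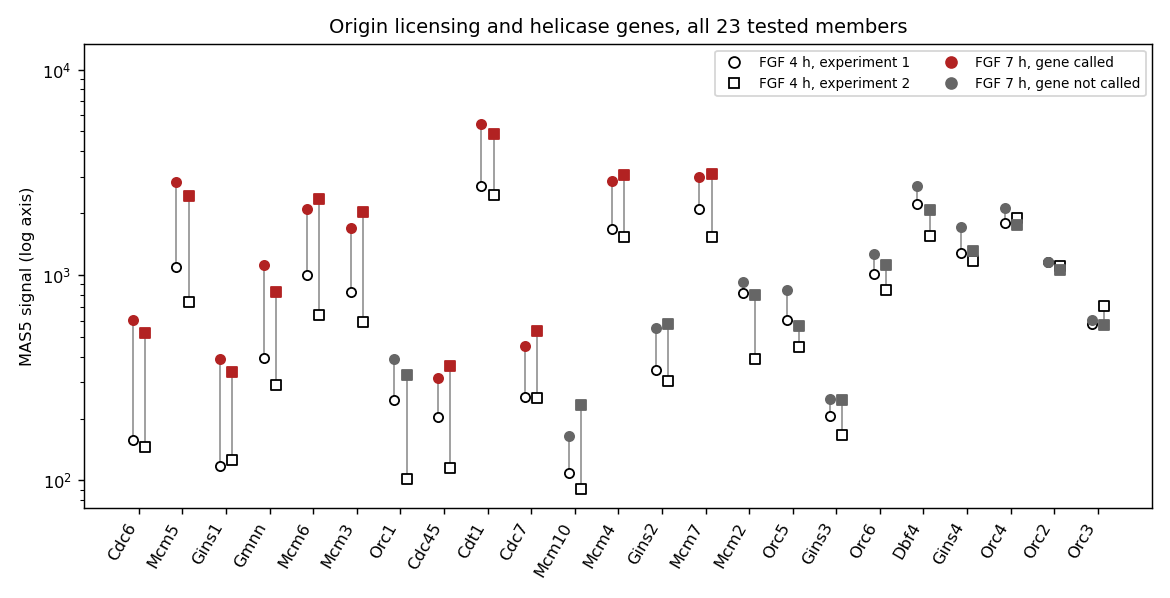
MAS5 signal (log axis) of all 23 tested genes for origin licensing and the helicase, ordered by their step, with open symbols for FGF 4 h and filled symbols for FGF 7 h, circles for experiment 1 and squares for experiment 2, and a line joining the arrays of 1 experiment. The 11 called genes are red at 7 h; Mcm5 sits between 740.1 and 1096 at 4 h and between 2429.7 and 2832 at 7 h, while Orc2 and Orc3 hardly move.

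Because members of that group moved together, their promoters were searched for letters of the E2F site. The promoter stretches come from RefSeq on assembly GRCm38.p6, and the 250 bases before each gene's start were searched on both strands for TTTCCCGC, TTTCGCGC, TTTGCCGC and TTTGGCGC, which can overlap one another. Of the 148 genes called higher, 116 had a promoter entry, and 17 of these (14.66%) held at least 1 such motif. Of the 137 called lower, 100 had an entry and 2 held one (2.0%). The share was 3.51% over the tested genes with an entry (422 of 12040) and 2.16% over all genes with an entry (583 of 27025). In the licensing list, 7 of 18 tested genes with an entry held a motif (38.89%), and of the called ones 4 of 8. These were Mcm5, Mcm6, Mcm7 and Cdc6, whose windows are shown with those of Uhrf1, Hells and Rfc3, called genes described next. Each is written 5′ to 3′ on the gene's strand, with the motif in capitals; in Mcm5 the capitals hold 2 overlapping motifs, and Mcm6 had 3 motifs in its 250 bases, of which the window shows the one nearest the start. Positions are chr8:75109320-75109407, plus strand (Mcm5), chr1:128359706-128359792, minus strand (Mcm6), chr5:138172001-138172088, minus strand (Mcm7), chr11:98907973-98908060, plus strand (Cdc6), chr17:56304088-56304175, plus strand (Uhrf1), chr19:38930888-38930975, plus strand (Hells) and chr5:151651209-151651258, minus strand (Rfc3).
Mcm5: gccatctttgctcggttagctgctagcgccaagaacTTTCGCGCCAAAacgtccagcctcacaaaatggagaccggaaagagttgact
Mcm6: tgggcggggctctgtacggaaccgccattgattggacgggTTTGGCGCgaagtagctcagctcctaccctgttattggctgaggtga
Mcm7: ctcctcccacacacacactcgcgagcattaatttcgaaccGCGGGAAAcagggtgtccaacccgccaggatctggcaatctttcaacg
Cdc6: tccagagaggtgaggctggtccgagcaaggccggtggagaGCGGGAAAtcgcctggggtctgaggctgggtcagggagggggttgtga
Uhrf1: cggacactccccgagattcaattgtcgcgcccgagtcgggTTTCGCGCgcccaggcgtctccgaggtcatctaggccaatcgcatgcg
Hells: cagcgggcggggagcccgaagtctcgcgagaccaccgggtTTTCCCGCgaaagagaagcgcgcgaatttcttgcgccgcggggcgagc
Rfc3: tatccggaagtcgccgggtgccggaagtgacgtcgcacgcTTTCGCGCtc
A match in these letters is a description and not a binding site. The windows of Mcm3, Cdt1, Cdc45, Cdc7, Prim1, Pole2, Slbp, Rrm2 and Dck, all called higher, held none of the 4 motifs. Gmnn, Gins1, Mcm4, Atad2, Apcdd1 and Ccne2 were not matched to an entry. Among tested genes with an entry, 4 of 23 for the replication fork (17.39%) and 0 of 7 for deoxynucleotide synthesis held a motif.

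Genes for the replication fork had a smaller median step in the same direction. Of 26 tested, 5 rose and 0 fell, beside 0.987% called higher over all genes. The step was above 0 for all 26, with a median of 0.48 against 0.02 over all genes. Uhrf1, which recognises newly replicated DNA for methylation, had 295 and 193 at 4 h and 783 and 869 at 7 h, a rise of 1.73 ± 0.22 (adjusted p = 0.00037). Prim1, the catalytic primase subunit, went from 592 and 545 to 1071 and 1045 (0.88 ± 0.13, adjusted p = 0.0018). The polymerase epsilon subunit Pole2 rose by 0.73 ± 0.13, the clamp loader subunit Rfc3 by 0.80 ± 0.18 and Slbp, which binds the stem-loop of histone mRNA, by 0.46 ± 0.10 (adjusted p = 0.0073, 0.03 and 0.029). The last 3 reached adjusted p of 0.11, 0.27 and 0.26 with 1 array left out. Pcna, the sliding clamp, read 12201 and 11156 and then 14210 and 14206, and did not pass (0.28 ± 0.13, adjusted p = 0.31).

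Of 7 tested genes for deoxynucleotide synthesis 2 rose and 0 fell, with a list median of 0.51. Over all genes, 0.987% were called higher. Rrm2, the regulated subunit of ribonucleotide reductase, showed 1202 and 637 at 4 h and 2414 and 1876 at 7 h (1.27 ± 0.17, adjusted p = 0.00068). Its partner Rrm1 showed 1369.7 and 1107 and 1363 and 1630, which overlap (0.27 ± 0.15, adjusted p = 0.44). Dck, the deoxycytidine kinase, rose by 0.97 ± 0.15, from 824 and 388 to 1513 and 828. For Dck and Rrm2 experiment 1 read higher than experiment 2 at both times, and without the block adjusted p was 0.61 and 0.32. Thymidine kinase Tk1, at 310.2 and 166 and 423 and 391, did not pass (0.80 ± 0.24, adjusted p = 0.11).

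Hells, Atad2 and Zfp367, single genes in none of the lists above, were called whichever array was left out; Atad2 and Zfp367 were picked for that after values were seen. Hells, a chromatin remodeller of the SNF2 family, rose by 1.502 ± 0.15, from 677 and 428 to 1669 and 1441 (adjusted p = 6.4e-05), and was called in each alternative analysis run for it. Atad2, a bromodomain protein, went from 1356 and 1215 to 2477 and 2785 (1.03 ± 0.12, adjusted p = 0.00022). Zfp367, a zinc-finger protein, went from 465 and 331 to 1191 and 877 (1.35 ± 0.16, adjusted p = 0.00022). In each of these 3 genes both 7 h arrays exceeded both 4 h arrays, but with the probe set of highest variance Atad2 and Zfp367 did not pass (adjusted p = 0.2 and 0.76).

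Among the regulators of the G1/S transition, fewer genes were called, beside 0.987% called higher over all genes. Ccne2, an E-type cyclin, was the only one called of 9 tested G1 cyclins and CDKs. It showed 209 and 119 at 4 h and 479 and 393 at 7 h (1.38 ± 0.29, adjusted p = 0.019, and 0.046 to 0.25 with 1 array left out). Ccne1, the other E-type cyclin, had 264 and 171 and 380.3 and 405, with no overlap but no call (0.84 ± 0.27, adjusted p = 0.14). Ccnd1, the D-type cyclin that responds to growth factors, had 4383 and 3544 at 4 h and 5715 and 5664 at 7 h (0.53 ± 0.14, adjusted p = 0.062). It passed under 75th percentile scaling (0.045), with the probe set of highest variance (0.026) and when only the compared arrays were fitted (0.0021). In 9 other alternatives without such omission of an array Ccnd1 did not pass. It passed with FGF 4 h replicate 1 left out (0.048) and reached 0.58 with FGF 4 h replicate 2 left out. Of 12 E2F factors and pocket proteins, 2 rose: the pocket protein gene Rbl1, from 428 and 302 to 846 and 818 (1.18 ± 0.18, adjusted p = 0.0023), and the E2F partner Tfdp1, from 3215 and 2864 to 4048 and 3976 (0.40 ± 0.10, adjusted p = 0.048, and 0.14 to 0.3 with 1 array left out). E2f1 lay just past the limit, with 231 and 264 at 4 h and 362 and 459.7 at 7 h (0.69 ± 0.18, adjusted p = 0.0502). None of 5 CDK inhibitors was called; Cdkn1a had 2866 and 4215 and 3083 and 4590.1, and Cdkn1b 754 and 493 and 723 and 623. None of 29 genes for G2 and mitosis was called either, and their median was 0.10.

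A list of 32 genes for DNA repair and checkpoints, chosen after values were seen, held 9 that rose and 0 that fell (median 0.62). The share called higher over all genes was 0.987%. The direction of this list is no independent evidence. Exo1, an exonuclease, went from 99.3 and 82.2 to 291 and 242 (1.42 ± 0.28, adjusted p = 0.012). Chek1, the checkpoint kinase, went from 226 and 200.1 to 481 and 413 (1.02 ± 0.18, adjusted p = 0.0067). Brca1 and Brca2, which act in homologous recombination, rose by 1.07 ± 0.26 and 1.08 ± 0.23, and the mismatch repair gene Msh6 by 0.74 ± 0.12 (adjusted p = 0.043, 0.021 and 0.0044). The remaining called members were Fignl1, Atad5, Dna2 and Tipin, with rises of 0.47 for Tipin to 1.20 for Fignl1. Each of the 9 lost its call without at least 1 of the 4 arrays, and the highest adjusted p then ran from 0.1 for Chek1 to 0.4 for Tipin.

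Outside the replication genes, the rises were scattered over biosynthetic and stress lists. Each list held 1 or 2 called rises, against 0.987% called higher over all genes. Counts this small are no result about a list. Odc1, the rate-limiting enzyme of polyamine synthesis, rose by 0.52 ± 0.10, from 3885 and 3413 to 5617 and 4849.6, the only call among 7 polyamine genes. Of 20 genes for purine and pyrimidine synthesis 2 rose, the folate enzyme Mthfd1 by 0.54 ± 0.12 and the purine enzyme Pfas by 0.64 ± 0.14, with a list median of 0.22. Psph, which makes serine, rose by 0.71 ± 0.16 as the single call among 33 amino acid and ATF4 genes. The heat shock genes Hspa1b and Hspa4l rose by 0.72 ± 0.13 and 0.62 ± 0.14, 2 of 15 tested. Single genes were called in 4 further lists: Dkc1 of 35 for ribosome biogenesis (0.78 ± 0.15), Elovl6 of 29 for cholesterol and fatty acid synthesis (0.62 ± 0.14), Pdk1 of 17 for glycolysis (0.62 ± 0.13) and Filip1l of 24 for the actin cytoskeleton (0.54 ± 0.12). Met, the hepatocyte growth factor receptor, rose by 0.70 ± 0.13 while Igf2r, which takes up IGF2, fell by 0.67 ± 0.15, 2 calls among 18 growth factor receptors. Each of these genes lost its call without at least 1 of the 4 arrays; the highest adjusted p then ran from 0.096 for Met to 0.4 for Elovl6.

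Several of the largest rises came from signals near the floor. Slc22a17, a lipocalin receptor, had 17.7 and 10.1 at 4 h and 104 and 119 at 7 h (2.20 ± 0.46, adjusted p = 0.021). The neuronal splicing factor Nova2 (1.99 ± 0.44), Fjx1 (1.94 ± 0.42), the taste receptor Tas1r2 (1.85 ± 0.41), Utf1 (1.82 ± 0.42), the lipid kinase Pip5k1b (1.79 ± 0.40), Igsf1 (1.75 ± 0.41) and Ooep (1.75 ± 0.41) were of the same kind. Their 4 h means lay under 45.2, so the size of the change depends on the 13.6 added to the signal. Their 7 h signals lay between 54.5 (Ooep) and 175 (Utf1), and quiescent cells already read 92.5, 34.1 and 129.5 for Slc22a17. In total 12 of the 148 genes called higher started below 45.2. Large rises from higher signal were those of Ank3, Gpr149 and Apcdd1. Ank3, the scaffold ankyrin-G, had 526 and 1244 at 4 h and 3337 and 2340.3 at 7 h (1.77 ± 0.29, adjusted p = 0.0044, and 0.0035 to 0.11 with 1 array left out). Gpr149, an orphan receptor, went from 416 and 432 to 1389.7 and 1252 (1.61 ± 0.27, adjusted p = 0.0048, and 0.01 to 0.11 with 1 array left out). Apcdd1, an inhibitor of Wnt signalling, went from 641 and 541 to 2175 and 1139 (1.40 ± 0.16, adjusted p = 0.00022). Slc5a3, a myo-inositol transporter, went from 3882 and 3231 to 7535 and 5969.7 (0.92 ± 0.13, adjusted p = 0.0015).

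Of the genes that fell, several were immediate-early transcription factors. Of 25 tested immediate-early genes 5 fell and 0 rose, with a median of -0.19 against 0.02 over all genes. The share called lower over all genes was 0.914%. The orphan nuclear receptor Nr4a1 had 935 and 1088 at 4 h and 313 and 392 at 7 h and fell by 1.49 ± 0.22 (adjusted p = 0.0015); at 1 h its single array had read 17925. Nr4a3 fell by 2.84 ± 0.46, from 121 and 429.5 to 37.8 and 9 (adjusted p = 0.0033). Its 7 h signals were under 45.2 and its 4 h arrays differed widely, and the highest adjusted p with 1 array left out was 0.1. The zinc-finger factors Egr1 and Egr3 fell, with steps of -1.11 ± 0.21 and -0.92 ± 0.17. Egr1 read 3059 and 4648 at 4 h and 1430 and 2108 at 7 h, and Egr3 1844 and 1423 and 908 and 793 (adjusted p = 0.011 and 0.0083). The AP-1 subunit Junb fell by 0.78 ± 0.18, from 578 and 622 to 304 and 386 (adjusted p = 0.033). With 1 array left out, adjusted p was 0.033 to 0.19 for Egr1, 0.041 to 0.15 for Egr3 and 0.11 to 0.26 for Junb. Fos, at 144 and 170.2 and 106 and 97, did not pass (-0.56 ± 0.36, adjusted p = 0.53). Jun (6512 and 5623, then 5814 and 4862) and Dusp1 (11969 and 12503, then 12539.8 and 10840.3) overlapped between the times.

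Among delayed and feedback targets of ERK, 1 of 22 tested fell and 0 rose, with a median of -0.10. The share called lower over all genes was 0.914%, and a single call is no result about the list. Errfi1, a feedback inhibitor of the EGF receptor, fell by 0.55 ± 0.13, from 5347 and 7594 to 4084 and 4639 (adjusted p = 0.038, and 0.11 to 0.33 with 1 array left out). The ERK phosphatase Dusp6 had 9314 and 8316 at 4 h and 7396 and 7422 at 7 h (-0.25 ± 0.14, adjusted p = 0.44). Fosl1, Hmga2 and the growth factor Ereg gave steps of -0.17 ± 0.19, 0.26 ± 0.25 and 0.13 ± 0.15, none of which passed. Myc had 4669.8 and 5447 and 4259 and 4203 (-0.25 ± 0.13, adjusted p = 0.4).

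Of the lists examined, that of clock genes had the lowest median, -0.41 over 17 genes, of which 4 fell and 0 rose. Over all genes, 0.914% were called lower. Bhlhe40, a repressor of the clock and of other promoters, had 1806 and 1891 at 4 h and 656 and 685 at 7 h and fell by 1.44 ± 0.19 (adjusted p = 0.00044). The 4 arrays left no overlap, and adjusted p was 0.0069 to 0.019 with 1 array left out. The period gene Per2 went from 241 and 263 to 49.7 and 135 (-1.45 ± 0.34, adjusted p = 0.031). The nuclear receptors Nr1d1 and Nr1d2 (REV-ERB) went from 152 and 297 to 51.7 and 129 (-1.23 ± 0.28, adjusted p = 0.031) and from 2114 and 2581 to 931 and 1582 (-0.94 ± 0.16, adjusted p = 0.005). With 1 array left out adjusted p reached 0.38, 0.34 and 0.11 for these 3. Per1, Per3, Tef and Dbp also had lower signals at 7 h without passing, with steps of -0.41 ± 0.20, -0.93 ± 0.27, -0.63 ± 0.18 and -0.64 ± 0.27.

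Matrix genes and others of the cell surface were also among the falls. Of 37 genes for collagens and matrix 3 fell and 0 rose, with a list median of -0.08. Over all genes, 0.914% were called lower. Ccn5, a matricellular protein, had 1693 and 1159.9 at 4 h and 353 and 376 at 7 h, a step of -1.90 ± 0.17 with the smallest adjusted p among the genes named here (2.5e-05). The thrombospondin gene Thbs1 fell by 1.04 ± 0.14, from 842 and 1778 to 457 and 762. Thbs2 fell by 0.46 ± 0.10, from 3706 and 5083 to 2601 and 3797. The Thbs2 signals overlap between the times, and its call rests on the pairing (adjusted p = 0.021 with the block and 0.71 without). The Thbs1 call rests on the pairing too (adjusted p = 0.00093 with the block and 0.55 without). Fibrillar collagens did not pass: Col1a2 read 25025 and 31952 and 23671 and 30780.2, and Col3a1 31399 and 37128 and 31132 and 32305. Of 16 matrix proteases and inhibitors, Timp3, an inhibitor of metalloproteases, fell by 0.85 ± 0.14 and the membrane protease Mmp14 fell by 0.65 ± 0.12 (adjusted p = 0.0044 and 0.0069). The highest adjusted p after omitting 1 array was 0.054 for Thbs1, 0.21 for Thbs2, 0.11 for Timp3 and 0.15 for Mmp14. The proteoglycan gene Cspg4 went from 646 and 559 to 214 and 362 (-1.07 ± 0.21, adjusted p = 0.014, up to 0.22 with 1 array left out).

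Other large falls were in single genes. Serpinb1a, a serine protease inhibitor, went from 763 and 606 to 269 and 142 and fell by 1.73 ± 0.22 (adjusted p = 0.00044). Arhgap27 went from 125 and 137 to 17.8 and 18.4 (-2.19 ± 0.30, adjusted p = 0.00068), and the adhesion receptor gene Adgrd1 from 129.7 and 235 to 21.5 and 65.4 (-1.84 ± 0.24, adjusted p = 0.00044). The 7 h means of Arhgap27 and Adgrd1 were under 45.2. Uap1, which makes UDP-N-acetylglucosamine, fell by 1.13 ± 0.19. Phldb1 and the aldehyde dehydrogenase gene Aldh3b1 fell too, with steps of -1.13 ± 0.14 and -1.07 ± 0.26. Gbp2, an interferon-induced GTPase, fell by 1.27 ± 0.20 as the only call among 16 interferon response genes. The ferritin receptor gene Scara5 went from 8795 and 8965 to 3676 and 5059 (-1.04 ± 0.15, adjusted p = 0.0013). Omitting 1 array gave a highest adjusted p of 0.11 for Uap1, 0.4 for Aldh3b1 and 0.061 for Gbp2.

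Genes linked to growth arrest and cell death fell in small numbers, beside 0.914% called lower over all genes. Of 22 antiproliferative genes 2 fell, the repressor Hbp1 (-0.67 ± 0.12) and Ndrg1 (-0.49 ± 0.11), with a list median of -0.16. Of 12 FOXO targets 2 fell, the PI3-kinase inhibitor Pik3ip1 (-0.81 ± 0.18) and Trib1 (-0.68 ± 0.16). These 4 calls were lost without at least 1 of the 4 arrays, where adjusted p reached 0.12, 0.34, 0.34 and 0.25 in that order. Bcl2l11, which encodes the death-promoting protein Bim, fell by 1.07 ± 0.15, from 4460 and 5429.9 to 2148 and 2553 (adjusted p = 0.0013, and 0.013 to 0.027 with 1 array left out). None of 15 p53 targets was called. Btg2, Tob1, Jund, Trp53inp1 and Gadd45a did not pass, with steps of -0.36 ± 0.15, 0.27 ± 0.13, -0.63 ± 0.19, -0.19 ± 0.14 and -0.32 ± 0.16.

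Stress and degradation genes gave further falls, beside 0.914% called lower over all genes. Herpud1, a gene of the unfolded protein response, went from 6881 and 6963 to 4225 and 3781 (-0.79 ± 0.12, adjusted p = 0.0015), while the chaperone gene Hyou1 of the same list rose by 0.44 ± 0.11. The list's other 19 genes did not pass. Metallothionein Mt1 went from 13779 and 11496 to 8763 and 8001 (-0.59 ± 0.11, adjusted p = 0.013), Smad3, which transmits TGF-beta signals, fell by 0.56 ± 0.13, and the histone variant gene H2az2 fell by 0.48 ± 0.10. After omission of 1 array, adjusted p reached 0.065 for Herpud1, 0.32 for Hyou1, 0.2 for Mt1, 0.31 for Smad3 and 0.23 for H2az2. A list of 31 genes for lysosomes and autophagy, chosen after values were seen, held 6 that fell and 0 that rose (median -0.16). The autophagy receptor gene Sqstm1 went from 8640 and 9625 to 4992 and 6746 (-0.65 ± 0.11, adjusted p = 0.005). The proton pump subunit genes Atp6v0b, Atp6v0d1 and Atp6v1b2 fell, with steps of -0.45 ± 0.10, -0.59 ± 0.13 and -0.51 ± 0.10, as did Ctso (-0.55 ± 0.12) and Lmbrd1 (-0.52 ± 0.12). Each of the 6 lost its call without at least 1 array, with adjusted p up to 0.37.

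**Figure D3:**
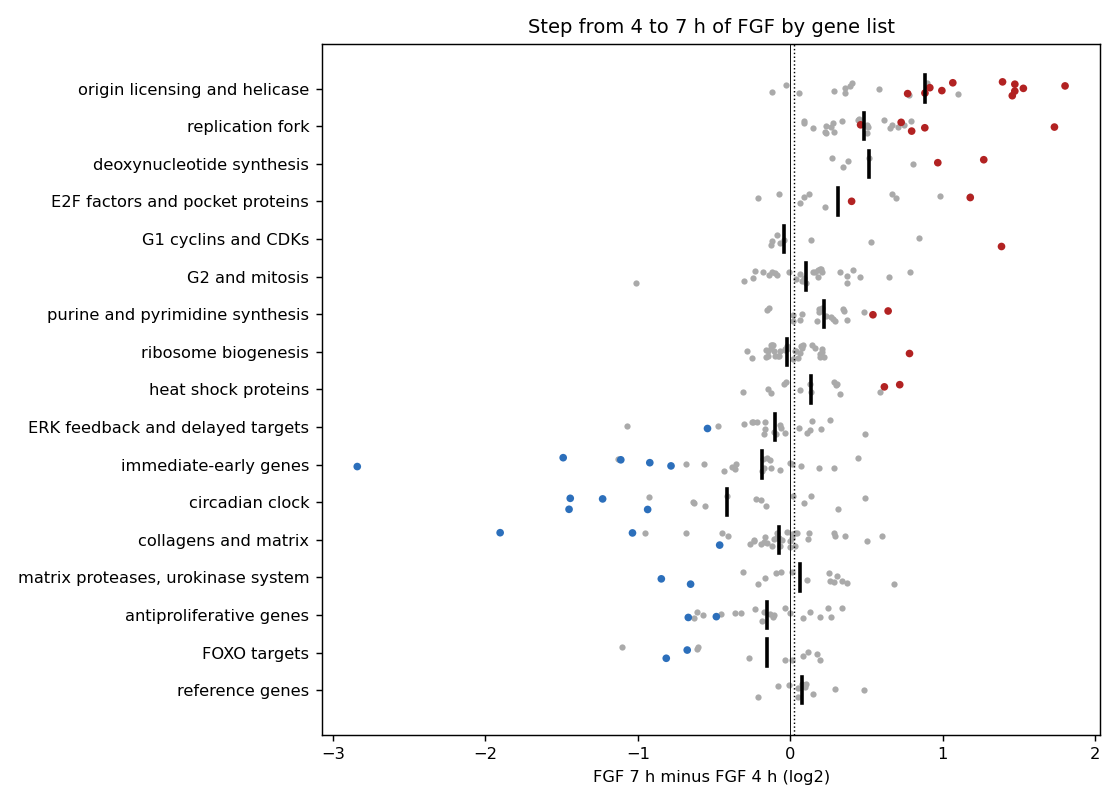
Log2 difference between 7 h and 4 h of FGF for the tested genes of 17 lists, 1 point per gene, red where called higher, blue where called lower and grey where not called; the thick bar is the list's median and the dotted line the median of all genes (0.02). The medians run from -0.41 for the clock to 0.88 for licensing and the helicase, and the reference genes have no called member.

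Lists with no called gene were those for G2 and mitosis, CDK inhibitors, p53 targets, mitochondrial import and ribosomes (0.07 over 22 genes), chemokines and cytokines, and reference genes (0.08 over 11). Actb had 24505 and 30490.3 at 4 h and 26361 and 30244 at 7 h, and Pgk1 15961 and 20701 and 18473 and 20444. Markers of other cell types gave no called gene: 0 of 7 macrophage, 0 of 9 epithelial, 0 of 7 endothelial, 0 of 7 muscle and 0 of 4 adipocyte markers tested. Summed over its members, the macrophage list read 1609.9 to 1632.2 at 4 h and 1697.7 to 1705.4 at 7 h. The epithelial list read 1537.2 to 1569.2 and then 1126.3 to 1396.8. The adipocyte list read 10437.9 to 11758.7 and then 8681.1 to 8929.2, with 1 of its 4 tested members above 45.2 on all 4 arrays. Endothelial sums were 391.6 to 468.3 and then 263.4 to 575.2. Muscle sums were 329.6 to 362.4 and then 284 to 541.2. Differences between these sums were not tested.

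The same step was then measured with MEK inhibited throughout. With U0126, 373 genes were called between 4 and 7 h (2.49%), 217 higher (1.45%) and 156 lower (1.04%). Without the block there were 22 (0.147%), 7 higher (0.0467%) and 15 lower (0.1%). Of the 148 genes that rose without U0126, 17 also rose with it, which is 11.49% of the former and 7.83% of the latter, and 1 fell. Of the 137 that fell, 28 also fell with it (20.44% and 17.95%), and 1 rose. The median step of the 148 was 0.75 without U0126 and 0.19 with it. For the 137 it was -0.69 and -0.36. Since these genes were chosen on the step without U0126, a smaller value with it is a description. The test of the difference between the steps called 30 genes (0.2%), 24 with a more positive step without U0126 (0.16%) and 6 with a more negative one (0.04%). Without the block it called 2 (0.0133%), both more negative.

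Of the 24, 8 were licensing genes (of 23 tested), beside 0.16% of all genes called with a positive difference. Mcm5 had 562 and 377 at 4 h and 304 and 302 at 7 h with U0126, a step of -0.58 ± 0.16 that was not called, and its steps differed by 2.11 ± 0.23 (adjusted p = 0.00046). Both 7 h arrays with U0126 lay below both 4 h arrays with U0126, the opposite of the order without it. For Mcm6 the steps differed by 2.06 ± 0.26, for Gins1 by 1.82 ± 0.36, for Gmnn by 1.61 ± 0.22, for Mcm3 by 1.499 ± 0.23, for Mcm4 by 1.19 ± 0.17, for Mcm7 by 1.12 ± 0.17 and for Cdt1 by 0.92 ± 0.17 (adjusted p from 0.0021 for Mcm6 to 0.042 for Gins1). Cdc6, with 65.2 and 16 and 4.8 and 21.4 under U0126, differed by 2.73 ± 0.56 but did not pass (adjusted p = 0.056). The list's median step with U0126 was -0.14. Dscc1, a subunit of an alternative clamp loader that acts in sister chromatid cohesion, had the largest difference by the naming rule, 2.59 ± 0.41: it rose without U0126, from 132 and 68.6 to 265 and 257, and fell with it, from 83.3 and 95.7 to 28.7 and 29.9. The chemokine gene Ccl2 differed by 1.80 ± 0.28, with 293 and 647 and 139 and 158 under U0126 against 3374 and 3922 and 4640.1 and 4465 without.

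Some changes were called with and without the inhibitor. Vwa5a went from 5184 and 5453 to 3063 and 2851 without U0126 and from 5609.6 and 5391 to 3206 and 3402 with it (-0.84 ± 0.10 and -0.73 ± 0.10), and the steps differed by -0.11 ± 0.14. Ccn5 fell under both, with steps of -1.90 ± 0.17 without and -0.77 ± 0.17 with U0126 (difference -1.14 ± 0.24, adjusted p = 0.057). Egr1 stood lower with U0126, at 344 and 254 and 73.9 and 81.3, and its step there was -1.76 ± 0.21 (difference 0.65 ± 0.30, adjusted p = 0.54). Of the 25 immediate-early genes 4 fell with U0126, namely Egr1, Ier3, Atf3 and Ccn2. Of the 17 clock genes 4 fell with it, namely Dbp, Per3, Tef and Nfil3. Over all genes, 1.04% were called lower with U0126. Dbp had 1034 and 1046 and 173 and 368 with U0126, a step of -1.98 ± 0.27; without the inhibitor it was already at 261 and 196 at 4 h. Msh6 and Hspa1b rose with U0126 too, with steps of 0.61 ± 0.12 and 1.06 ± 0.13. Of 17 NRF2 targets and metallothioneins 5 rose with U0126, namely Gclm, Srxn1, Gsr, Taldo1 and Gsta4, beside 1.45% of all genes. The step without U0126 had 0 rises in this list. This contrast of counts was not tested, and none of the 5 had a called difference of steps.

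Genes with the opposite difference were Arhgap27, Myzap, Serpinb1a, Tenm4 and Gbe1 by the naming rule, and Fam20c. Myzap, a protein of cell junctions, fell without U0126, from 774 and 642 to 339 and 352, and rose with it, from 166 and 140.2 to 375 and 390.2 (difference -2.25 ± 0.28, adjusted p = 0.0021). Gbe1, the glycogen branching enzyme, overlapped without U0126 (422 and 229, then 448 and 264) and rose with it, from 465 and 329 to 1350.3 and 1048 (1.57 ± 0.17). Serpinb1a overlapped with U0126, 705 and 608 and then 551 and 747. Other large steps with U0126 alone were the rises of Chst15 (2.33 ± 0.42), Gsta2 (2.11 ± 0.52), Relt (1.54 ± 0.39) and Sncb (1.35 ± 0.27) and the falls of Trpv6 (-2.03 ± 0.53), Cartpt (-1.99 ± 0.51), Nrxn3 (-1.92 ± 0.29) and Acy3 (-1.79 ± 0.31). None of these 8 had a called difference of steps, and Chst15, Gsta2, Trpv6, Cartpt and Acy3 had a lower group mean under 45.2.

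**Figure D4:**
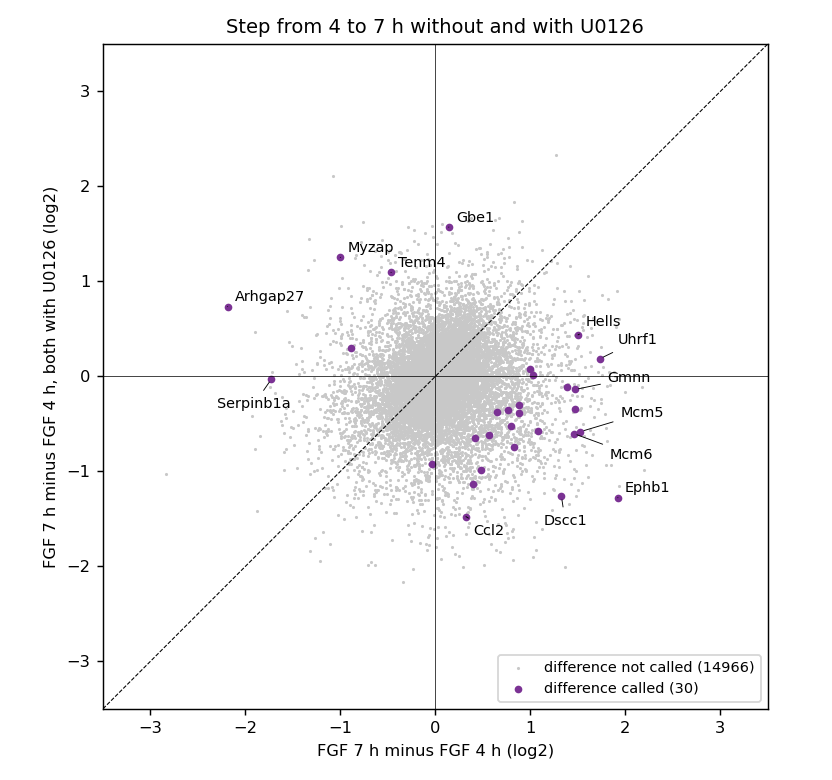
Each point is 1 of 14996 genes, with the log2 step from 4 to 7 h of FGF on the horizontal axis and the same step with U0126 on the vertical axis; the dashed line marks equal steps. The 30 genes whose steps differed by the test are purple, and Mcm5 lies at 1.53 across and -0.58 up, far below that line.

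The called genes were then followed across the other times. The arrays at 12 h and at 0 h are compared here with the 4 h arrays that also define the step, so the values are set side by side without a test. The 148 genes called higher had a median 0.75 above 4 h at 7 h and 1.03 above 4 h at 12 h, while quiescent cells stood 0.09 above 4 h. Of the 148, 121 (81.76%) were higher at 12 h than in quiescent cells, against 49.05% of all genes. For the 137 called lower the medians were -0.69 at 7 h, -0.87 at 12 h and 0.16 in quiescent cells, and 11 (8.03%) were higher at 12 h than in quiescence. Mcm5 read 731, 983 and 536 in quiescent cells and 7895 and 6836 at 12 h, and Gmnn 383, 506 and 366 and 3052 and 3021. For both, quiescent and 4 h signals overlapped. Uhrf1 reached 2511 and 2279 at 12 h. Ccn5 read 2934, 2833 and 2999 in quiescent cells and 245 and 199.9 at 12 h, with both steps downward. Nr4a1 read 271, 428 and 658 in quiescent cells, so its 7 h level of 313 and 392 lay within the quiescent range. With U0126 added at 1 h, the single 7 h array read 249 for Mcm5, 303 for Gmnn and 91.8 for Uhrf1, each far below both 7 h arrays without the inhibitor.

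**Figure D5:**
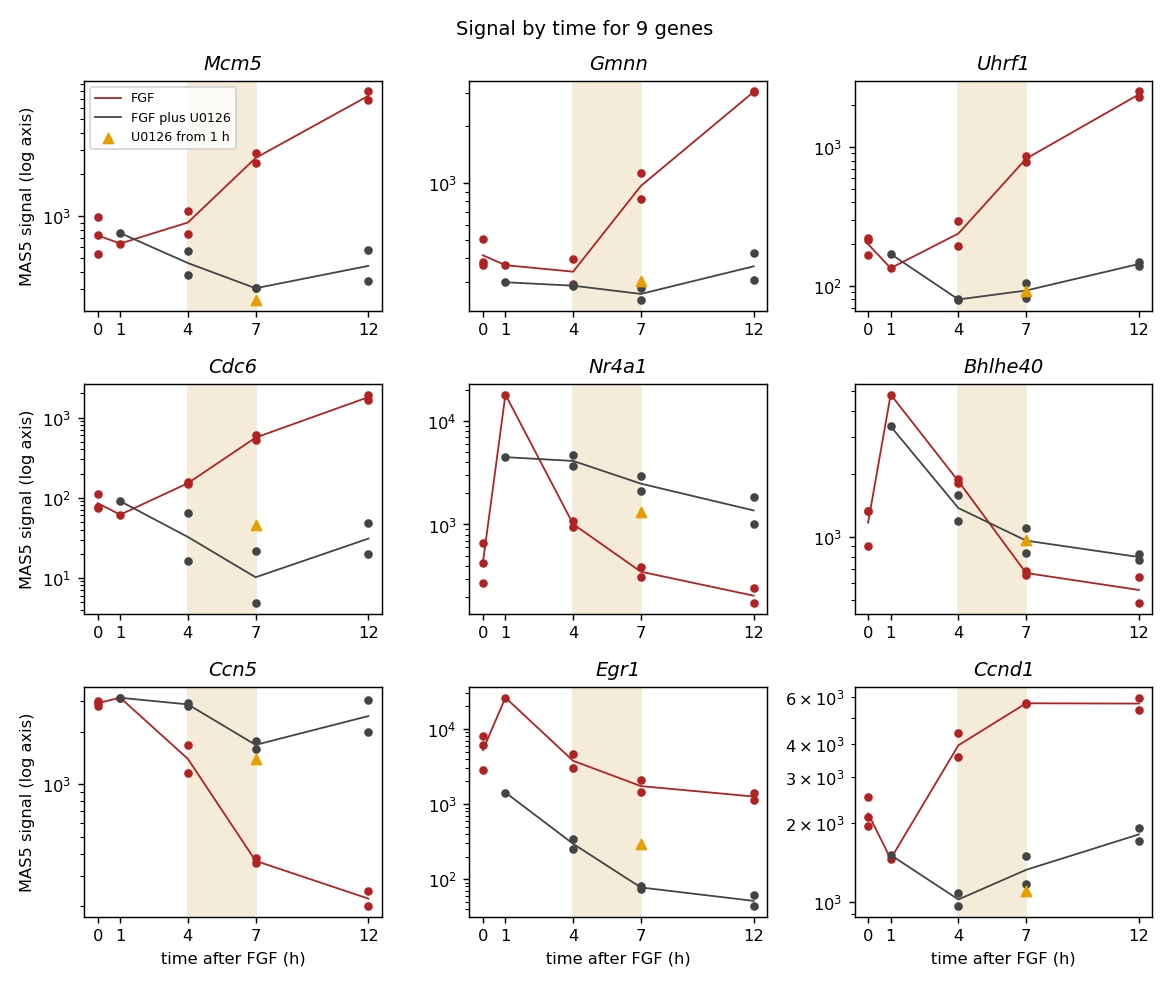
MAS5 signal (log axis, a separate scale for each gene) against hours after FGF for 9 genes, with 1 point per array and lines through the geometric means, red for FGF, dark grey for FGF plus U0126 from -0.5 h and an orange triangle for the array with U0126 from 1 h; the shaded band is the step from 4 to 7 h. Mcm5, Gmnn, Uhrf1 and Cdc6 go up within the band without U0126, where every 7 h array with it lies lower, and Nr4a1, Bhlhe40, Ccn5 and Egr1 go down.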

How the data were processed

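MAS5 signal intensities were made and deposited by the authors, per the submitters' processing notes; its version and presence calls are not given in the sources used here. The platform annotation gave 34945 of 45101 probe sets 1 gene symbol, 932 several and 9160 none. For the analysis 13.6 (the 20th percentile) was added to each signal before log2, quiescent replicates 1a and 1b were averaged, and a probe set was kept if 2 or more arrays had it over that array's 40th percentile. The probe set with the highest mean stood for its gene. All 11 groups (18 columns) were fitted in R 4.3.3 by limma 3.58.1, using eBayes with a variance trend and the experiment as a block, giving 6 residual and 11.6 prior degrees of freedom. Experiment numbers were taken as pairs because replicate deviations correlated between all 21 pairs of groups (r 0.127 to 0.305; 0.243 between 4 h and 7 h), and because the comparison is defined as paired. The number of arrays limits precision. The fit was also run on simulated data drawn from the same block model, which checks the code only. Such data cannot test whether the block or the variance trend suits these arrays. Plots were drawn with matplotlib 3.10.9.

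The comparison and gene lists were chosen with earlier results of these data known. Named genes were the 15 largest called changes each way moving alike in both experiments with a higher group mean above the median signal (74), 5 each way for the other contrasts, up to 5 called and 4 uncalled members per list, and 24 fixed genes. Genes outside this rule were chosen after their values were seen, including Mcm4, Mcm7, Cdc45, Cdc7, Atad2, Zfp367, Apcdd1, Slc5a3, Scara5, Bcl2l11, Vwa5a, Fam20c and the members of the lists for DNA repair and for lysosomes. Alternatives were quantile and 75th percentile scaling, other offsets, filters, probe sets and quiescent columns, no variance trend, no block, only the compared groups, and leaving out each replicate. Probe sets without a single gene were left out.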

Additional observations from a re-analysis of the deposited data

Results flagged for a closer look

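For 30 genes the step from 4 to 7 h differed between cells without and with U0126 by the test of the difference itself (limma, adjusted p under 0.05). Values are log2 differences, the step without U0126 minus the step with it.

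Of the 24 with a positive difference, 8 belong to the list for origin licensing and the helicase, which had 23 tested genes. Over all genes, 0.16% had a called positive difference. The helicase subunit genes were Mcm5 at 2.11, Mcm6 at 2.06, Mcm3 at 1.499, Mcm4 at 1.19 and Mcm7 at 1.12. With them stood Gins1 at 1.82, Gmnn at 1.61 and Cdt1 at 0.92. Outside that list, the primase gene Prim1 was at 1.27, the clamp loader gene Dscc1 at 2.59 and the recombination gene Brca2 at 1.66. Uhrf1, Hells and Atad2 were at 1.55, 1.06 and 1.01. Tcf19 was at 1.46, from steps of 0.48 and -0.98 without and with U0126.

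The other 9 positive differences were in single genes. The receptor gene Ephb1 was at 3.20, the largest value, but its signals at 4 h were 4.4 and 15.2, close to the floor. The chemokine gene Ccl2 was at 1.80, the Wnt agonist gene Rspo2 at 1.58, Casp12 at 1.52, the phosphatase gene Ptprk at 1.31 and the guidance factor gene Sema3a at 1.18. Rnf213 was at 1.06, Mllt3 at 1.03 and the growth hormone receptor gene Ghr at 0.89. For Ghr and Casp12 the step without U0126 did not pass (adjusted p = 0.91 and 0.23) and the step with it was -0.93 ± 0.10 and -1.13 ± 0.15.

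Negative differences were those of Arhgap27 (-2.92), Myzap (-2.25), Serpinb1a (-1.70), Tenm4 (-1.56), Gbe1 (-1.43) and Fam20c (-1.19). Myzap had steps of -1.001 and 1.25 without and with U0126, and Fam20c of -0.89 and 0.29. Only 2 of the 30 were called without the block, Arhgap27 and Myzap.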

How the results depend on the processing

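The step count of 285 stayed between 201 and 329 under both other scalings, both other offsets, the stricter filter and the probe set of highest variance. Of the 285 genes, 272 to 283 were called again under these settings, except with the probe set of highest variance, where 155 were. The count was 189 without the filter, 163 with 3 separate quiescent arrays, 4 without the variance trend and 18 without the replicate block. It was 477 when only the compared arrays entered the fit with the replicate block. Fitting all probe sets called 438 probe sets of 359 genes, and the 607 given below for the step with U0126 are probe sets of 514 genes. Leaving out 1 array gave 43 to 172. With U0126 the count of 373 became 186 with 3 separate quiescent arrays, 225 with the probe set of highest variance (169 of them among the 373), 607 over all probe sets, 22 without the replicate block and 95 to 239 with 1 array left out. Without the variance trend limma called 0 there, with 2149 genes at an unadjusted p under 0.05. The 30 differences of steps became 18 with the probe set of highest variance (14 of them among the 30), 1 without the trend, 2 without the replicate block and 9 to 31 with 1 array left out. The 11 licensing calls became 1 without the trend, 5 without the replicate block and 7 to 8 with 1 array left out. With the probe set of highest variance, the steps of Fjx1 (-0.91), Pip5k1b (-0.14), Dkc1 (-0.00348), Hyou1 (-0.27), Pdk1 (-0.29) and Ptprk (-0.62) and the difference of steps of Tenm4 (0.0965) changed sign. A group reduced to a lone array took its spread from the other groups. The cause of these changes was not tested.

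Only 2 arrays per time limit all results, signals under 45.2 were not shown to be above background, and no arrays without FGF at 4 or 7 h were analysed here.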
